A study of Homo sapiens with 16 samples.

Results

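The genes described here are the cyclins E, A and B, their kinases and the phosphatases that switch those kinases on: CCNE1, CCNE2, CCNA2, CCNB1, CCNB2, CDK1, CDK2, CDC25A, CDC25B and CDC25C. They were chosen by symbol from the 23260 gene symbols of the deposited table. All 10 symbols were found, and all 10 were among the 13426 genes kept after a filter on low values, which asked for 1 FPKM or more in 4 or more tumors. FPKM scale the fragments of a gene by its length and by the size of the library, so that levels of different genes can be set side by side.

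The tumors were xenografts of A375, an established human melanoma cell line with mutant BRAF, grown on both flanks of NOG mice (NOD/Scid/IL2γR-/-), which lack most lymphoid cells. Treatment was intraperitoneal. Control mice were given vehicle, J mice the BET inhibitor JQ1 (50 mg/kg daily), V mice the BRAF inhibitor Vemurafenib (2 doses of 25 mg/kg a day) and J+V mice both, and tumors were taken on day 5. Each of the 4 groups held 4 tumors from 2 mice, named by mouse and flank, so the 16 tumors came from 8 mice and 1 line. BET inhibitors displace bromodomain proteins from acetylated chromatin, and BRAF inhibitors block the MAPK pathway that mutant BRAF drives.

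The cell cycle is driven by kinases that work only when bound to a cyclin. Cyclin E with CDK2 starts DNA replication, cyclin A with CDK2 and then CDK1 carries the cell through S phase and G2, and cyclin B with CDK1 starts mitosis. The kinases WEE1 and PKMYT1 hold the complexes inactive by phosphorylation, and the CDC25 phosphatases remove that mark. Most of these genes are transcribed periodically: E2F factors raise those of G1/S, and those of G2/M rise later through NF-Y at CCAAT boxes and through CHR elements, the sites of the DREAM and MMB-FOXM1 complexes.

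Promoter sequences are shown because the periodic transcription of such genes is known to run through elements in their promoters. Not every gene held each form searched here. The RefSeq table of promoters (GRCh38.p14) matched 8 of the 10 genes. It did not match CCNE2 or CDK2. The 250 bases before the annotated start are printed 5′ to 3′ on the strand of the gene, for the genes that fell most in J+V tumors, for CDC25C, and for CDC25B, which did not fall. Capitals mark 4 motifs searched on both strands. They are the CCAAT box, the CHR in its form TTTGAA, the same element in another form, TTTAAA, and the E2F site in the form TTTNNCGC. The windows are chr15:59104896-59105145 (+) for CCNB2, chr5:69166900-69167149 (+) for CCNB1, chr4:121823884-121824133 (-) for CCNA2 and chr10:60778228-60778477 (+) for CDK1. Those of the phosphatases are chr5:138331805-138332054 (-) for CDC25C, chr3:48188418-48188667 (-) for CDC25A and chr20:3796060-3796309 (+) for CDC25B. For the genes with several annotated starts, 1 window is printed.
CCNB2: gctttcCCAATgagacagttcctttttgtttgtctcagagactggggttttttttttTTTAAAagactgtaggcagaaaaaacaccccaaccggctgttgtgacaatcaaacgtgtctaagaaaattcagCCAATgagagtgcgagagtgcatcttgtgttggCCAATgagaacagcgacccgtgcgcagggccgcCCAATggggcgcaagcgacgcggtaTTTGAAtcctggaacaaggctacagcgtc
CCNB1: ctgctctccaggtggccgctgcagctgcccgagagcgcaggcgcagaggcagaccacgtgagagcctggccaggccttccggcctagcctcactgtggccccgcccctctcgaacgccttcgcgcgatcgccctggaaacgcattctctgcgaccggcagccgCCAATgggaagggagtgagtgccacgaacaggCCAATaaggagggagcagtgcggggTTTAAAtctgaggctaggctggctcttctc
CCNA2: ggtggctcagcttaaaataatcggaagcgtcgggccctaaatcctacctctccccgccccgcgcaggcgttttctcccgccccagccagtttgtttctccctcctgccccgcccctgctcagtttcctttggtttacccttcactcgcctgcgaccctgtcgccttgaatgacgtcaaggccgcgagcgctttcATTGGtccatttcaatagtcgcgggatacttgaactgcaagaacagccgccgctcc
CDK1: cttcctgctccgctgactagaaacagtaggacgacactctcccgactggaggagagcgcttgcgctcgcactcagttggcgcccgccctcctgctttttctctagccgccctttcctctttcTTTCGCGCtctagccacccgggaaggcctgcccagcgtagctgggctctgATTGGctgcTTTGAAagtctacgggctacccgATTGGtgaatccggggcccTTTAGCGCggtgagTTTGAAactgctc
CDC25C: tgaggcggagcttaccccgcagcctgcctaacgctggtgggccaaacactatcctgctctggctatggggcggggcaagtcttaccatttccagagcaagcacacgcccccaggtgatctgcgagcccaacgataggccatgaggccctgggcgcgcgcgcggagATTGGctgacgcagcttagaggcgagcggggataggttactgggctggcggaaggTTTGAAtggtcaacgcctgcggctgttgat
CDC25A: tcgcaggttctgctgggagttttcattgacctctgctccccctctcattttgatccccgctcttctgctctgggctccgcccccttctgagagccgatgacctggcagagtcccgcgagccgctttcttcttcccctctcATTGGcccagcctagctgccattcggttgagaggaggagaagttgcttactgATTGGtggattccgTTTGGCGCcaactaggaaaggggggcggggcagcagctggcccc
CDC25B: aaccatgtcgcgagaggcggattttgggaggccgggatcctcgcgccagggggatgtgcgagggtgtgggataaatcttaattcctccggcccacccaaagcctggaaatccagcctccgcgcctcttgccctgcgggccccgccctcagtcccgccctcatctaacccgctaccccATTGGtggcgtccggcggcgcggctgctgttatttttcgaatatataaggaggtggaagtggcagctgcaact
CCAAT or its reverse complement stood in 7 of the 8 genes (all but CCNE1), 4 times in the window of CCNB2, against 32.0% of all 35116 promoters in the table. TTTGAA was found for CCNB2, CDK1 and CDC25C (13.3% of all promoters) and TTTAAA for CCNE1, CCNB1, CCNB2 and CDK1 (11.3%). TTTNNCGC was found for CDC25A and CDK1 (5.92%). In the printed CDK1 window it occurred 2 times, at -128 to -121 and at -27 to -20 from the start. GGGCGG, a binding site of Sp1 that is not capitalised, was found for all 8 genes (42.6% of all promoters), and in the CCNB2 window it overlaps the CCAAT nearest the start. Counted by window, since CDK1, CDC25B and CDC25C have several (those of CDK1 and some of CDC25C overlap in part), CCAAT was in 10 of 15, TTTGAA in 4, TTTAAA in 4, TTTNNCGC in 2 and GGGCGG in 13. Of the 4 CDC25B windows, 2 held CCAAT and none held either form of the CHR or the E2F form. These matches describe letters, not bound sites.

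The depth of the libraries in reads is unknown here, so no counting interval is given. The steps between low FPKM values placed the relative depth of the J+V libraries at 0.779 to 0.871 of control tumor 2L, against 0.92 to 1.087 for control, 0.908 to 1.072 for J and 0.801 to 1.05 for V. Markers of the melanocyte lineage were present in part. Of the 7 listed, 4 passed the filter, and DCT was below 0.1 FPKM in every tumor. Their summed level was 34.3 to 50.9 FPKM in control and 69.9 to 99.9 FPKM in J+V tumors. Most of that rise was S100B, at a mean of 16.7 FPKM in control and 54.6 FPKM in J+V, which was called higher, as was MLANA. SOX10 (log2 fold change 0.38, adjusted p = 0.0873, limma) and MITF (0.23, adjusted p = 0.218, limma) were not called. Fibroblast markers, all 6 kept, summed to 36.2 to 121.4 FPKM in control and 62.4 to 114.9 FPKM in J+V tumors, while endothelial and lymphocyte markers were at or near 0, and 1 of 5 leukocyte markers was kept. Of the 6 fibroblast markers, LUM, DCN and PDGFRB were called higher in J+V than in control. The sources used here do not say how reads from the mouse host were handled. The part of any of these differences in the results below was not tested.

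In J+V tumors 9 of the 10 genes were lower than in control, and only CDC25B did not differ by the test. CCNB2, which activates CDK1 for mitosis, was at 32.1% of the control mean, CDC25A at 34.7%, CCNA2 at 35.6% and CCNB1 at 38.5%. CDK1, CDC25C, CCNE1, CCNE2 and CDK2 stood at 45.6 to 53.3% of it, and CDC25B at 104.4%. The 9 genes were called in limma at a Benjamini-Hochberg adjusted p below 0.05, where 20.5% of all genes tested were called lower. No member was called higher, against 16.6% of all genes. The median log2 fold change of the 10 genes was -1.08, against -0.025 for all genes tested. The thresholds of the study's methods were also applied to this limma fit (a change of over 2-fold, p under 0.01, FDR under 0.1). By them 5 were lower, CCNA2, CCNB1, CCNB2, CDC25A and CDK1, where 2.38% of all genes were. CCNE1, CCNE2 and CDC25C, with log2 fold changes of -0.98, -0.99 and -0.996 on log2(FPKM + 0.5), just missed the 2-fold cut. The paper, which tested read counts with DESeq, lists these genes among those down in J+V. In bulk tumors a lower share of cycling cells and less of each RNA per cell cannot be told apart.

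**Figure D1:**
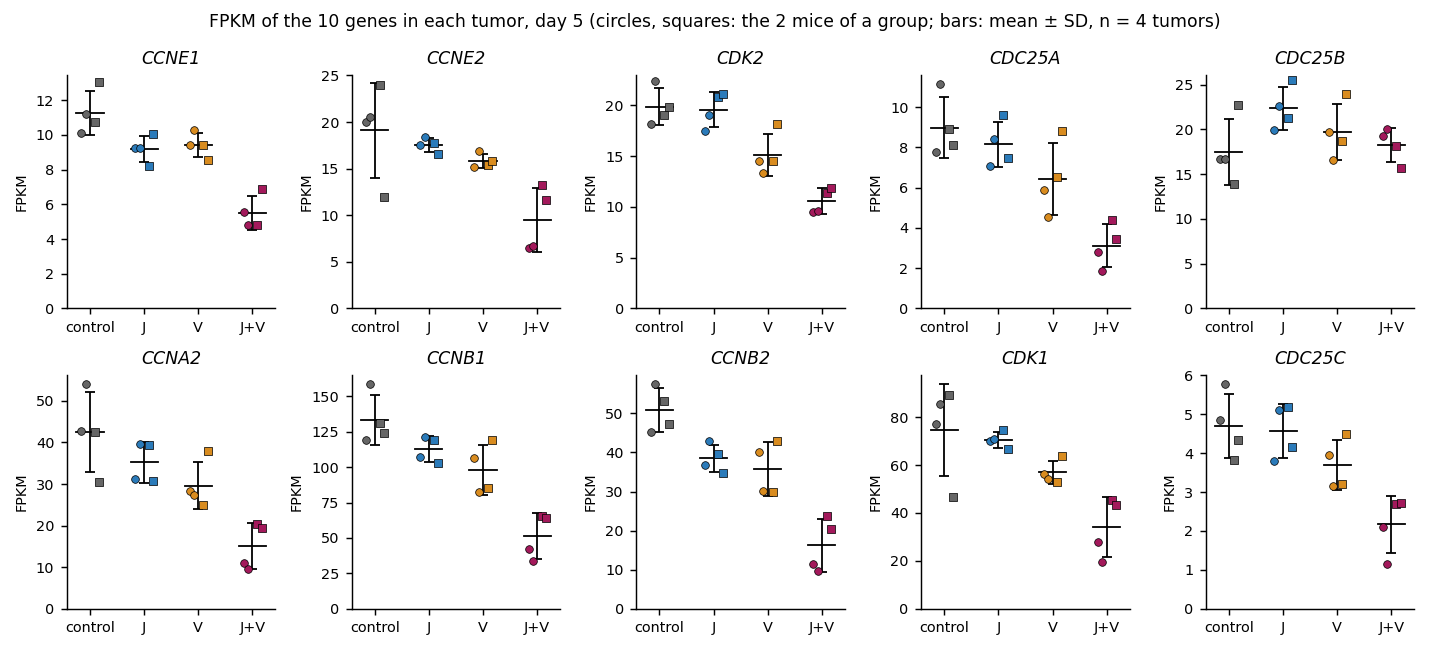
FPKM of the 10 genes (y axis, linear, from 0) in each of the 16 tumors by group (x axis). Circles and squares are the 2 mice of a group and bars give mean and SD over 4 tumors. J+V tumors lay below all other tumors for 8 genes, below all J and V tumors for CCNE2, and within the range of the other groups for CDC25B.

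CCNE1 and CCNE2 encode the cyclins that bind CDK2 at the start of S phase. CCNE1 (chr19:30302898-30315219, GRCh37) measured 10.1, 11.2, 10.8 and 13.1 FPKM in control tumors 2L, 2R, 5L and 5R. It measured 9.27, 9.24, 8.23 and 10.1 in J tumors and 9.39, 10.3, 9.40 and 8.57 in V tumors. In J+V tumors 33L, 33R, 34L and 34R it was at 5.55, 4.79, 4.82 and 6.90 FPKM. The lowest of the other 12 tumors stood above the highest of J+V. The log2 fold change of J+V against control was -0.98 with a standard error of 0.106 (limma, adjusted p = 3.31e-05).

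CCNE2 (chr8:95891998-95908906, GRCh37) was the gene of the 9 whose J+V and control tumors overlapped. Control tumors were at 20.0, 20.5, 23.96 and 11.96 FPKM, the last in 5R. J+V tumors were at 6.54 and 6.66 in mouse 33 and at 13.2 and 11.7 in mouse 34. The tumors of J (16.6 to 18.4 FPKM) and of V (15.2 to 16.9 FPKM) all lay above those of J+V. Its log2 fold change against control was -0.99 with a standard error of 0.211 (limma, adjusted p = 0.00241). It was -0.56 without mouse 33 and -1.42 without mouse 34. The ratio of CCNE2 to CCNE1 was 1.74 ± 0.571 (SD, n = 4) in control and 1.75 ± 0.697 (SD, n = 4) in J+V tumors.

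CDK2 (chr12:56360565-56366573, GRCh37), the kinase of cyclins E and A, measured 19.8 ± 1.82 FPKM (SD, n = 4) in control and 10.6 ± 1.25 FPKM (SD, n = 4) in J+V tumors. It fell by 0.88 on the log2 scale with a standard error of 0.104 (limma, adjusted p = 4.89e-05). J tumors kept 19.6 ± 1.69 (SD, n = 4) FPKM and V tumors 15.1 ± 2.07 (SD, n = 4). CDC25A (chr3:48198636-48229907, GRCh37), the phosphatase that acts on CDK2 at G1/S and also later, measured 7.78, 11.2, 8.89 and 8.13 FPKM in control. In J+V tumors it was at 2.80, 1.84, 4.41 and 3.45 FPKM, all below the lowest tumor of any other group, V tumor 16R at 4.52. The log2 fold change was -1.43 with a standard error of 0.208 (limma, adjusted p = 0.000196).

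CCNA2 (chr4:122737599-122745038, GRCh37), the cyclin of S phase and G2, measured 42.7, 54.0, 42.6 and 30.5 FPKM in control, the lowest again in 5R. J+V tumors were at 11.1, 9.62, 20.3 and 19.5 FPKM. The log2 fold change was -1.503 with a standard error of 0.225 (limma, adjusted p = 0.000237). Relative to its kinase CDK2, CCNA2 stood at 2.13 ± 0.406 (SD, n = 4) in control and 1.40 ± 0.368 (SD, n = 4) in J+V, with overlapping tumors (1.54 to 2.42 against 1.01 to 1.78).

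CCNB1 (chr5:68462962-68474072, GRCh37) was the most abundant of the 10 RNAs in every group. Control tumors were at 119.3, 158.9, 131.1 and 123.8 FPKM, J tumors at 107.3, 121.3, 119.4 and 102.9, and V tumors at 106.2, 82.1, 85.1 and 118.9. J+V tumors were at 42.5, 33.4, 65.7 and 63.9 FPKM, below all of them. The log2 fold change against control was -1.41 with a standard error of 0.184 (limma, adjusted p = 9.48e-05).

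CCNB2 (chr15:59397325-59417244, GRCh37), the other main mitotic cyclin, had the lowest share of its control level left. It measured 45.2, 57.5, 53.2 and 47.2 FPKM in control and 11.5, 9.70, 23.7 and 20.3 FPKM in J+V tumors. It fell by 1.70 on the log2 scale, with a standard error of 0.220 (limma, adjusted p = 9.48e-05). J tumors ranged from 34.8 to 42.8 and V tumors from 29.8 to 43.1 FPKM, so each treated group lay below the lowest control tumor. For the single drugs this was not called (limma, adjusted p = 0.675 for J and 0.276 for V). The share of all genes separated from control in this way was not counted for the single drugs. The ratio of CCNB1 to CCNB2 was 2.64, 2.77, 2.46 and 2.62 in control, 2.83 to 3.02 in J, 2.65 to 2.86 in V and 3.70, 3.44, 2.77 and 3.15 in J+V tumors. The J and J+V tumors lay above the control tumors, with J+V tumor 34L just above control tumor 2R. This ratio was chosen after its values were seen, so it was not tested.

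CDK1 (chr10:62538089-62554610, GRCh37), the kinase of mitosis, measured 77.0, 85.5, 89.4 and 46.7 FPKM in control. In J+V tumors it was at 27.9, 19.4, 45.3 and 43.5 FPKM. Control tumor 5R stood close above the tumors of mouse 34, and the other control tumors stood well above them. The log2 fold change was -1.16 with a standard error of 0.228 (limma, adjusted p = 0.00146), and -0.70 without mouse 33. The ratio of CDK1 to CDK2 was 3.78 ± 1.01 (SD, n = 4) in control and 3.15 ± 0.859 (SD, n = 4) in J+V tumors, within the spread between tumors.

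CDC25C (chr5:137620958-137674044, GRCh37), which activates cyclin B with CDK1 at the entry into mitosis, was the least abundant of the 10 RNAs in every group. It measured 4.85, 5.78, 3.83 and 4.34 FPKM in control and 2.09, 1.16, 2.70 and 2.73 FPKM in J+V. The log2 fold change was -0.996 with a standard error of 0.190 (limma, adjusted p = 0.00117). All tumors of J (3.80 to 5.195 FPKM) and V (3.16 to 4.50 FPKM) stood above those of J+V.

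CDC25B (chr20:3767419-3786768, GRCh37), the phosphatase known for activating cyclin B with CDK1 at the centrosome in G2, was the exception. Its levels were 16.7, 16.7, 13.9 and 22.7 FPKM in control, 19.9, 22.6, 21.3 and 25.5 in J, 19.7, 16.6, 18.7 and 23.95 in V, and 19.3, 20.0, 18.2 and 15.6 in J+V tumors. The 4 groups overlapped. The log2 fold change of J+V against control was 0.08 (95% CI -0.21 to 0.36, adjusted p = 0.678, limma). It was -0.14 after rescaling each tumor to a common sum, so no direction is given.

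The share of CDC25B in the summed FPKM of the 3 CDC25 genes was highest in J+V tumors. It was 57.0, 49.6, 52.3 and 64.5% in control tumors and 79.7, 87.0, 71.9 and 71.7% in J+V tumors, with J at 59.0 to 68.7% and V at 64.3 to 68.3%. All J+V tumors lay above all tumors of the other groups. The log2 ratio of CDC25B to CDC25A was 0.95 ± 0.420 (SD, n = 4) in control and 2.61 ± 0.641 (SD, n = 4) in J+V. That of CDC25B to CDC25C was 1.89 ± 0.359 (SD, n = 4) in control and 3.15 ± 0.706 (SD, n = 4) in J+V. For each ratio the J+V tumors stood above all control tumors. For CDC25B to CDC25A they also stood above all J and V tumors. For CDC25B to CDC25C the lowest J+V tumor, at 2.52, lay below the highest of J (2.62) and of V (2.55). Both ratios were chosen after their values were seen, so they were not tested.

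**Figure D2:**
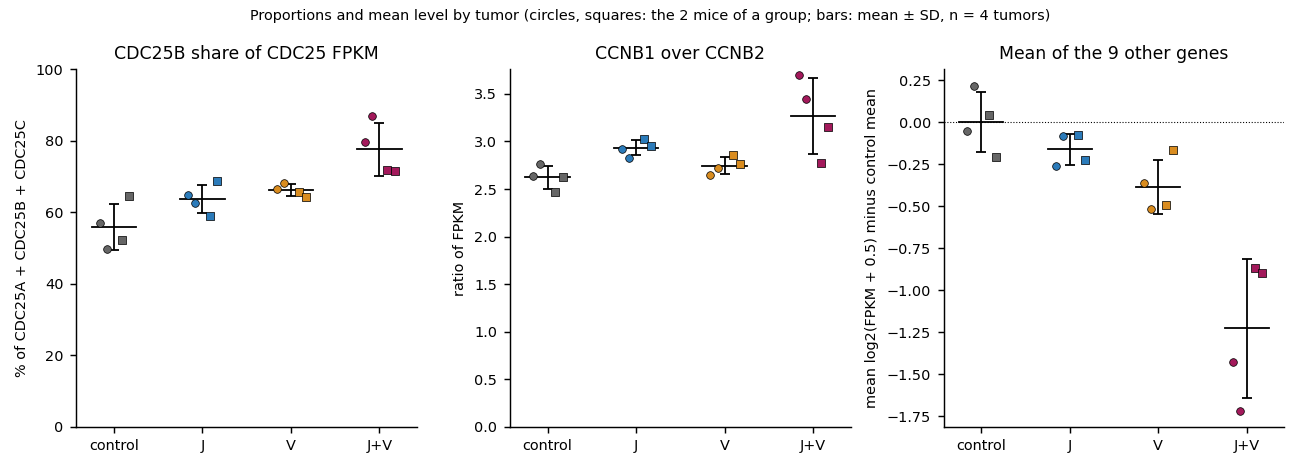
Left, CDC25B as a percent of the summed FPKM of CDC25A, CDC25B and CDC25C; middle, the ratio of CCNB1 to CCNB2; right, the mean log2(FPKM + 0.5) of the 9 genes other than CDC25B minus its control mean, each by group (x axis). Circles and squares are the 2 mice of a group and bars give mean and SD over 4 tumors. The CDC25B share of every J+V tumor (71.7 to 87.0%) exceeded that of every other tumor.

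The genes of G1/S (CCNE1, CCNE2, CDK2, CDC25A) and of S phase to mitosis (CCNA2, CCNB1, CCNB2, CDK1, CDC25B, CDC25C) were compared as 2 groups in each tumor. The mean log2 level of J+V tumors, minus the control mean, was -1.07 ± 0.290 (SD, n = 4) for G1/S and -1.12 ± 0.411 (SD, n = 4) for S phase to mitosis. The difference between the phases ranged from -0.21 to 0.10 over the J+V tumors. Without CDC25B it ranged from -0.58 to -0.06, with the tumors of mouse 33 lowest. The ranges were then -0.14 to 0.11 in control, -0.20 to 0.03 in J and -0.27 to 0.04 in V. The tumors of mouse 34 lay within the ranges of J and V. Tumor 34R, at -0.145, lay just below the lowest control tumor, 5R at -0.140. Since CDC25B did not fall, leaving it out makes the fall of its group larger, and no test was made.

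The order of levels changed little among the genes that fell. CCNB1, CDK1, CCNB2 and CCNA2 led in control, J and V tumors, and CDC25A and CDC25C were last in every group. CDC25B ranked 7 of 10 in control at 17.5 ± 3.68 (SD, n = 4) FPKM, beside CDK2 at 19.8 and CCNE2 at 19.1, from which it did not differ beyond the spread. In J+V tumors it ranked 3 of 10 at 18.3 ± 1.92 (SD, n = 4) FPKM, next to CCNB2 at 16.3 ± 6.77 (SD, n = 4) and CCNA2 at 15.1 ± 5.54 (SD, n = 4), whose tumors overlapped with it.

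Neither drug alone gave a call among the 10 genes. For J against control limma called 0 members and 0% of all genes, with 2 members and 1140 genes (8.49%) at an unadjusted p below 0.05. The members were CCNE1, lower by the estimate at -0.28 (95% CI -0.50 to -0.05, adjusted p = 0.486), and CDC25B, higher by the estimate at 0.36 (95% CI 0.08 to 0.64, adjusted p = 0.453). For the others the intervals took in 0. The estimate was -0.02 (95% CI -0.24 to 0.20) for CDK2 and -0.04 (95% CI -0.53 to 0.45) for CDK1. No member was called in any of 38 other settings.

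For V against control limma called 0 members and 0% of all genes, with 6 members and 2160 genes (16.1%) at an unadjusted p below 0.05. These were CCNE1, CDK2, CDC25A, CCNA2, CCNB1 and CCNB2, with estimates of -0.25 to -0.51. CDK2 came nearest to the threshold, at -0.39 (95% CI -0.61 to -0.16, adjusted p = 0.153, limma), and was called without V tumor 19R, the only call in the 38 other settings. The intervals of CCNE2, CDK1, CDC25B and CDC25C took in 0. CCNB2 had the largest estimate, -0.51 (95% CI -0.98 to -0.04, adjusted p = 0.276). The median over the 10 genes was -0.37 for V and -0.10 for J, against 0.0055 and 0.036 over all genes. The comparisons share the control tumors. J against V gave 0 calls among the 10 genes (0.283% of all genes), with CDK2 alone at an unadjusted p below 0.05. CDK2 was higher in J by 0.37 (95% CI 0.15 to 0.59, adjusted p = 0.163, limma).

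**Figure D3:**
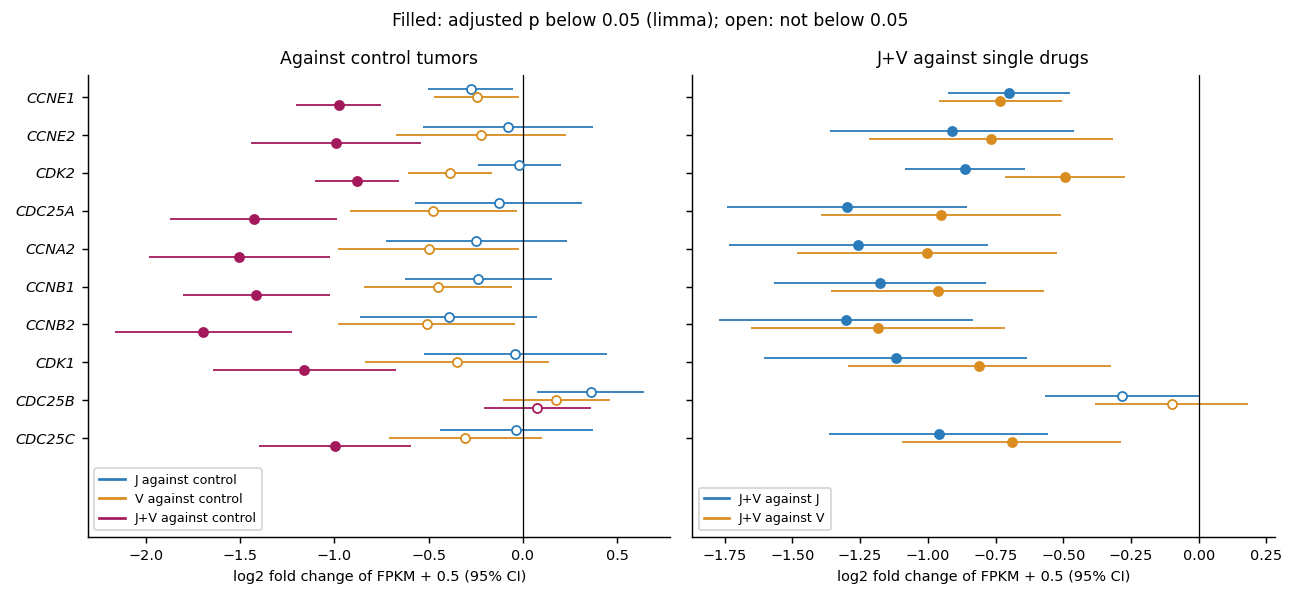
Log2 fold changes of FPKM + 0.5 with 95% confidence intervals (x axis) for the 10 genes (y axis), against control on the left and of J+V against each drug alone on the right. Filled points have an adjusted p below 0.05 in limma and open points do not; 9 genes are filled for J+V in each of its comparisons, where CDC25B is open.

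Against J, 9 of the 10 genes were lower in J+V tumors, where 18.4% of all genes were called lower. The log2 fold changes ran from -0.70 for CCNE1 to -1.30 for CCNB2 and CDC25A, with adjusted p from 0.000148 for CDK2 to 0.00627 for CCNE2. CDC25B had an estimate of -0.28 (95% CI -0.57 to 0.00056, adjusted p = 0.126, limma). CCNE2 lost its call when the tumors of a mouse were averaged and without mouse 26, 29 or 33, and 8 genes then remained. Without mouse 33 the estimates were nearer to 0, at -0.48 for CCNE2, -0.66 for CDK1, -0.79 for CCNB2 and -0.80 for CCNA2. Rescaling to a common sum added CDC25B, at -0.35 with adjusted p = 0.0190 (limma).

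Against V, the same 9 genes were lower in J+V tumors, where 8.31% of all genes were called lower. CCNB2 had the largest estimate at -1.18 with a standard error of 0.220 (limma, adjusted p = 0.00448), CCNA2 was at -1.003 and CDK2 at -0.49. CDC25B was at -0.10 (95% CI -0.38 to 0.18, adjusted p = 0.647). The calls against V depended on how tumors of the same mouse were treated. The fit used 1 correlation between the tumors of a mouse for all genes, estimated at -0.067, while over the 10 members alone it was 0.429. With 0.429 in place of it, a setting chosen after seeing the data, 0 of the 10 were called against V (smallest adjusted p = 0.0514, CCNE1, limma), and 121 of all genes were, in either direction. Averaging the tumors of each mouse left CCNE1 alone, and leaving out mouse 19 or mouse 33 left 3 genes. Without mouse 33 the estimates were -0.67 for CCNB2, -0.62 for CDC25A, -0.58 for CCNB1 and -0.55 for CCNA2, and -0.37 for CDC25C, -0.35 for CDK1 and -0.33 for CCNE2. Without mouse 34 those of CDK1 and CCNE2 were -1.27 and -1.20. With 0.429, 8 genes were called against J (all but CCNE2 and CDC25B) and the same 9 against control, the latter with adjusted p up to 0.0310.

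The departure from additivity, the J+V change less the J and V changes, asks whether both drugs together lowered a gene more than added log2 changes would. The estimate was below 0 for all 10 genes, and the median was -0.71 against -0.071 over all genes. CDC25B is included, at -0.46, but it was not lowered, with J+V against control at 0.08. Its departure came from J and V estimates above control, 0.36 and 0.18. Over the 10 genes the values ran from -0.45 for CCNE1 (95% CI -0.78 to -0.13) to -0.82 for CDC25A (95% CI -1.45 to -0.20). All 10 had an unadjusted p below 0.05, as had 1693 of all genes (12.6%), but limma called 0 members and 0% of all genes. The smallest adjusted p was 0.212, for CDK2. These intervals and p values use the mouse correlation of -0.067. With 0.429 in its place, chosen after seeing the data, the adjusted p was 0.9995 for each of the 10 genes (limma). Without mouse 34 limma called 7 members, among them CCNB2 at -1.30 with adjusted p = 0.00438. In no other of the 37 settings did it call any. Without mouse 33 it called 0, with estimates of -0.28 for CCNB2, -0.30 for CCNA2, -0.31 for CDK1 and -0.26 for CCNE2.

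The tumors did not overlap between J+V and control for 8 of the 10 genes, all but CCNE2 and CDC25B, where 16.4% of all genes had J+V tumors below the control tumors without overlap. The same 8 genes had all J+V tumors below all 12 other tumors, as had 6.09% of all genes.

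Within the J+V group the 2 mice differed. All genes but CDC25B were higher in mouse 34 than in mouse 33, and the tumors of the 2 mice did not overlap for 9 genes, CCNE1 being the exception. Over all genes tested the mice of this group did not overlap for 40.7%. The difference of log2 means was 1.021 for CCNB2, 0.92 for CDK1, 0.91 for CCNA2 and 0.87 for CCNE2. The median over the 10 genes was 0.72, against a median absolute difference of 0.136 over all genes. CDC25B went the other way, at 19.7 FPKM in mouse 33 and 16.9 in mouse 34. In the control, J and V groups the mice did not overlap for 2, 1 and 1 of the 10 genes, against 27.9, 34.9 and 28.5% of all genes. MKI67, the proliferation marker Ki-67, was also higher in mouse 34 (17.8 FPKM) than in mouse 33 (9.91 FPKM), and its mean was 26.8 ± 3.36 FPKM (SD, n = 4) in control against 13.9 ± 5.49 FPKM (SD, n = 4) in J+V (log2 fold change -0.99, adjusted p = 0.00148, limma). With 2 mice per group, a difference between mice and the course of the treatment in each mouse cannot be told apart.

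**Figure D4:**
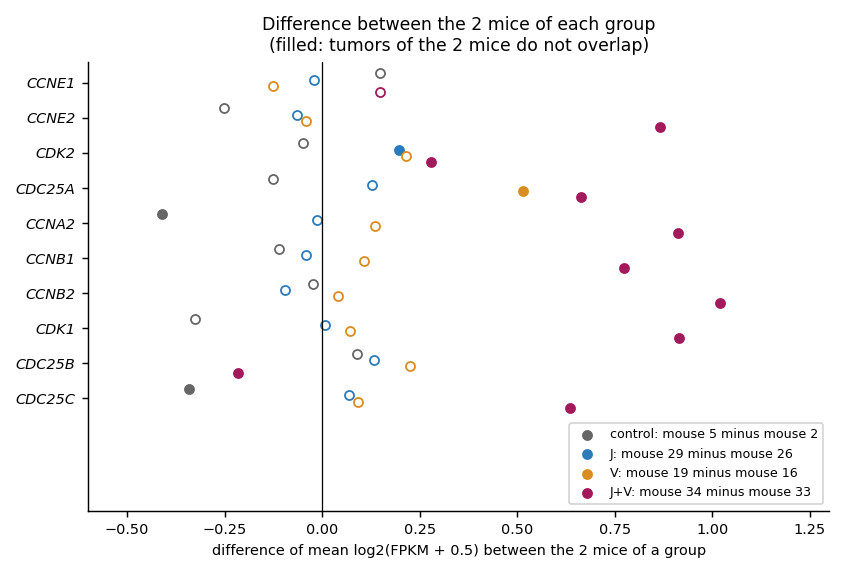
Difference of mean log2(FPKM + 0.5) between the 2 mice of each group (x axis) for the 10 genes (y axis). Filled points mark genes whose tumors do not overlap between the 2 mice; in the J+V group 9 points are filled, with CCNB2 farthest from 0 at 1.021.

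The other regulators of CDK1 and CDK2 were read from a list of 42 genes, of which 39 passed the filter and SFN, CCNA1 and CCNB3 did not. In J+V against control 22 of the 39 were lower and 1 was higher, against 20.5 and 16.6% of all genes, with a median of -0.34. In J and in V against control limma called 0 of the 39, with 3 and 13 at an unadjusted p below 0.05, against the 8.49 and 16.1% of all genes given above. In J+V against J 22 were lower, against 18.4% of all genes, and 1 was higher, against 8.67%. In J+V against V 8 were lower, against 8.31%. Those counts use the mouse correlation of -0.067. With 0.429 in its place, chosen after seeing the data, 13 were lower and 0 higher against control (7.31% of all genes lower), 9 lower against J (3.78%) and 3 lower against V (0.648%). With the tumors of each mouse averaged, 17 were lower against control (15.8% of all genes lower), 13 against J (11.7%) and 1, PLK1, against V (0.976%).

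The genes listed upstream of CDC25 held the largest change, with 3 of 8 lower, against 20.5% of all genes. PLK1, which activates CDC25C and promotes the loss of WEE1, measured 15.5 ± 0.608 FPKM (SD, n = 4) in control and 3.58 ± 1.55 FPKM (SD, n = 4) in J+V. Its log2 fold change was -2.04 with a standard error of 0.211 (limma, adjusted p = 2.78e-05). AURKA, which activates PLK1, fell by 1.60 and the checkpoint kinase CHEK1, which inhibits CDC25A, fell by 0.98 on the log2 scale. ATR, which activates CHEK1, was the gene that rose, by 0.38 (adjusted p = 0.00195, limma), and was not called with the correlation of 0.429 (adjusted p = 0.0649, limma).

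Both opposing kinases were called lower, but neither with the correlation of 0.429, where the adjusted p in limma was 0.0687 for WEE1 and 0.0577 for PKMYT1. WEE1 was at 14.5 ± 1.07 FPKM (SD, n = 4) in control and 10.9 ± 1.90 FPKM (SD, n = 4) in J+V (log2 fold change -0.40, adjusted p = 0.0101, limma). PKMYT1 was at 2.20 ± 0.568 FPKM (SD, n = 4) and 1.05 ± 0.188 FPKM (SD, n = 4) (log2 fold change -0.78, adjusted p = 0.00267, limma). Whether these changes were different from those of the phosphatases was not tested. Of the CDK inhibitors 2 of 3 were lower, against 20.5% of all genes, which is also the share for the opposing kinases above. CDKN1A (p21) was at 9.99 ± 0.856 FPKM (SD, n = 4) in control and 5.199 ± 1.04 FPKM (SD, n = 4) in J+V, lower by the test (log2 fold change -0.90, adjusted p = 0.000588, limma), and CDKN1B (p27) fell by 0.25 on the log2 scale (adjusted p = 0.0192, limma). With 0.429 CDKN1A kept its call and CDKN1B did not (adjusted p = 0.138, limma).

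CDC20, which directs the anaphase-promoting complex to cyclin B, fell by 1.75 on the log2 scale, and 2 of the 3 listed activators or inhibitors of that complex were lower. CCNF, a cyclin that serves a ubiquitin ligase, fell by 1.26, and both CKS subunits were lower, CKS2 by 1.18. Of the 6 measured 14-3-3 proteins, which bind phosphorylated CDC25, 5 were lower, with YWHAH lowest at -0.83. Of the genes of Greatwall and PP2A-B55, which set the phosphatase activity against CDK1, 3 of 5 were lower. Of the 4 ligase genes for cyclin E and p27, 1 was lower, near the 20.5% of all genes called lower. CDK5, 1 of the 2 related kinases, was lower. With 0.429, where 7.31% of all genes were called lower, the calls held for CDC20, CCNF, both CKS subunits and 3 of the 14-3-3 proteins. They were lost for CDK5, the ligase gene and 2 of the 3 genes of Greatwall and PP2A-B55. The CDK-activating kinase (CDK7, CCNH and MNAT1) had 0 of 3 called by limma and 0 of 3 at an unadjusted p below 0.05.

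**Figure D5:**
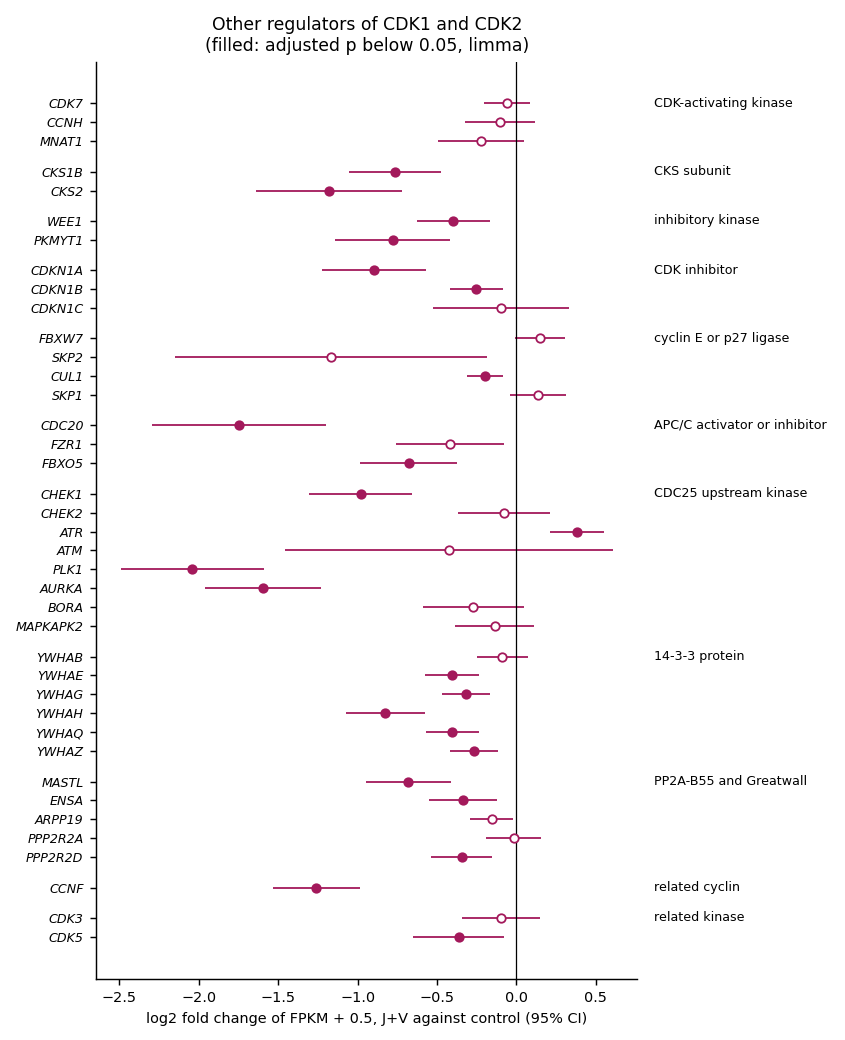
Log2 fold change of FPKM + 0.5 in J+V against control with 95% confidence intervals (x axis) for the 39 measured regulators (y axis), grouped by function. Filled points have an adjusted p below 0.05 in limma; 22 filled points lie below 0 and 1, ATR, lies above it.

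The genes whose profile over the 16 tumors was nearest to each member were read from the root mean square difference of log2(FPKM + 0.5), after centring each gene. CCNB1 was nearest to LMNB1 (0.077) and ORC1 (0.084), CCNB2 to PRC1 (0.084) and CENPA (0.105), and CCNA2 to MCM10 (0.0998) and PRC1 (0.126). CDK1 was nearest to TOP2A (0.088) and NCAPG (0.104), CCNE2 to CASC5 (0.085) and KIF11 (0.0998), and CDC25C to STMN1 (0.135).

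CDC25A was nearest to TPX2 (0.127) and UHRF1 (0.132), and CDK2 to MYO19 (0.085) and NF2 (0.091). CCNE1 had the most distant neighbours, LRP8 (0.165) and EPHX4 (0.176). CDC25B was nearest to OBSL1 (0.093) and SLC12A8 (0.094), and its nearest member, CDK2, lay at 0.394. Among the members, CCNB1 and CCNB2 were each other's nearest at 0.134, and CCNE2 and CDK1 at 0.148. CDC25B varied least of the 10 (SD 0.224 over the tumors), and a gene that varies little lies near other such genes by this measure.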

How the data were processed

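Total RNA of 16 tumors was depleted of ribosomal RNA (RiboZero) and made into ScriptSeq v2 libraries. The authors mapped reads to hg19 with TopHat2 and deposited FPKM per gene symbol; the labels also name Cufflinks and bcl2fastq, without versions. Read counts are not used here, so no count model was fitted and FPKM were tested on a log scale.

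Values were taken as log2(FPKM + 0.5). Genes at 1 FPKM or more in 4 or more tumors, 13426 in all, were fitted with limma 3.58.1 in R 4.3.3 (mean-variance trend, 4 groups, mouse as a block, 12 residual degrees of freedom), and p values were Benjamini-Hochberg adjusted over all of them. Tumors rather than mice are the replicates. The code was tested on simulated data drawn without a mouse effect. That test does not cover the correlation between tumors of a mouse.

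All 10 members are named in every comparison. Of the regulators, the 8 called in J+V against control with the largest log2 change are named, with WEE1, PKMYT1, CDKN1A and CDKN1B in any case and the 2 nearest genes of each member, of which 1 is not reported here. ATR was named after its value was seen, as the 1 regulator that rose, and so were the ratios, which were not tested, and the genes in those counts of 5 or fewer that fall outside this rule. Members and lists were chosen with earlier results of these data known. Alternatives were offsets of 0.1 and 1, no filter or a mean FPKM of at least 5, 4 other scalings, 4 other treatments of mouse or flank, robust moderation, only the groups compared, and leaving out each tumor or mouse. Positions of genes come from GENCODE (v44, on GRCh37) and promoters from RefSeq on GRCh38.p14; the builds were not mixed.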

Additional observations from a re-analysis of the deposited data

Results flagged for a closer look

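No value met the criteria used here for a closer look. The level of each of the 10 genes was checked in each of the 4 groups, and in 0 of these 40 sets of 4 tumors did the highest or the lowest tumor stand apart by Dixon's criterion. No departure from additivity passed the threshold in limma. All 10 genes had an unadjusted p below 0.05 in the fit with the mouse correlation of -0.067.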

How the results depend on the processing

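J+V against control gave 9 called genes in 37 of 38 other settings and 8 of 9 testable genes with a mean FPKM of at least 5, where CDC25C was filtered out. J+V against J gave 8 to 10. J+V against V gave 9 as reported, 1 when each mouse's tumors were averaged, 0 with the mouse correlation of the members (chosen after seeing the data), 5 with only the groups compared, and 3 to 9 when 1 tumor or mouse was left out, 3 without mouse 19 and 3 without mouse 33. V against control gave 0 to 1 over these leave-outs, 1 (CDK2) without V tumor 19R. The departure from additivity gave 0 to 7 over them, 7 without mouse 34, and could not be fitted with only the groups compared. J against control and J against V gave 0 throughout.

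Directions turned only for estimates near 0. For CDC25B in J+V against control the estimate was -0.14 with a common sum per tumor, and -0.039 to 0.20 over the leave-outs. That scaling moved the median of all genes from -0.025 to -0.222. Small RNAs made up 43.7 to 55.1% of the summed FPKM in control tumors and 54.5 to 61.7% in J+V tumors. Their share was 54.0 to 57.3% in J and 47.3 to 59.9% in V tumors. In J+V against V, CDC25B ranged from -0.21 to 0.012. In J against control the leave-out ranges were -0.28 to 0.071 for CCNE2, -0.12 to 0.079 for CDK2, -0.25 to 0.12 for CDK1 and -0.21 to 0.13 for CDC25C. With a common sum without small RNAs, CDK2 was at 0.020 and CDC25C at 0.00011. CCNE1 in J against V ranged from -0.094 to 0.031. The cause of these changes was not tested. No paired analysis was possible because replicate numbers follow accession order and no mouse is shared between groups. FPKM without read counts give no counting error, and 2 mice per group limit every comparison.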
